A study of Mus musculus with 5 samples.

Results

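The loci described here are 5 clusters of imprinted genes that control growth: H19 with Igf2, Dlk1 with Meg3, Igf2r, Grb10 and Cdkn1c. Imprinted genes are read mainly or only from the copy inherited from 1 parent. Peaks of DNase-seq, which marks chromatin open to the nuclease DNase I, were taken wherever they overlapped a fixed window on the mouse genome (build mm9). The windows were chr7:149720000-149900000 for H19 with Igf2, chr7:150600000-150700000 for Cdkn1c, chr12:110650000-110870000 for Dlk1 with Meg3, chr17:12825000-13015000 for Igf2r and chr11:11780000-11990000 for Grb10, 900 kb in all. Peaks of different lists that overlapped by at least 1 bp were merged into a site, and 45 of the 52181 sites of the genome lay in a window. The sites were chosen by position alone and not by any measured value.

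The cells were 3T9 fibroblasts, an immortalised line from embryos (E13.5, strain given as mixed) with floxed c-myc alleles, infected in culture with MycER. MycER is Myc fused to the part of the estrogen receptor that binds hormone, and 4-hydroxytamoxifen (4-OHT) switches it on. All 5 libraries came from these cells: 2 after ethanol vehicle at 0 h, 2 after 4 h of 400 nM 4-OHT, and 1 input, not analysed here. The labels do not say whether the floxed alleles had been deleted, whether the infected cells were 1 clone or a pool, or whether replicates were separate cultures.

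The 4 deposited lists held 3 distinct sets of peaks. The list of 4-OHT replicate 1 and that of vehicle replicate 2 were identical in all 44956 intervals and scores, so it is called the ambiguous list and was assigned to neither treatment. Vehicle replicate 1 (35149 peaks) is called the vehicle list and 4-OHT replicate 2 (47621 peaks) the 4-OHT list. With 1 list for each undisputed label there is no test of the treatment, and treatment cannot be told apart from the letter B that the titles of replicate 2 carry. Each peak carries the caller's score, read here, from the caller's name, as minus 10 log10 p. Scores ran from 80 upwards and piled up at 3100, a value reached by 7.85% of vehicle, 14.7% of ambiguous and 10.4% of 4-OHT peaks. The depth of the libraries is unknown, so a score is read within its own list. The list percentile of a peak is the share of its list with a score no higher than its own.

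Imprinting rests on control regions whose DNA methylation differs between the maternal and the paternal copy. Igf2, a growth factor of the fetus, is read from the paternal copy. H19, a long non-coding RNA next to it, is read from the maternal copy. Between them lies the H19 control region, where the insulator protein CTCF binds the unmethylated maternal copy and keeps shared enhancers beyond H19 from reaching Igf2. Dlk1, a transmembrane Notch-like protein known as preadipocyte factor, is paternally expressed, and Meg3, a long non-coding RNA, maternally, under a control region between them called the IG-DMR. Igf2r is the receptor that removes IGF2 to lysosomes. It is silenced on the paternal copy by Airn, a non-coding RNA that starts at a control region in an Igf2r intron and runs in the opposite direction across the Igf2r promoter. Grb10 is an adaptor that dampens insulin and IGF1 receptor signalling, and Cdkn1c (p57) is a cyclin-dependent kinase inhibitor. A DNase peak from mixed alleles does not show which parental copy was open.

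The promoter sequences show what DNA lay at the starts with and without a peak. RefSeq (build GRCm38.p6) gave 300-base windows, 250 bases before and 50 after the start, for 9 of the 12 genes looked up, 5 of them among the 7 members, with 14 start windows in all. The sequences are used as sequence only, since the peaks are on another build. Capitals mark matches on either strand to 5 motifs. CACGTG is the E-box, a sequence bound by Myc together with its partner Max. The TATA box, where the general transcription machinery can dock, was searched as TATAAA. The GC box, bound by Sp1, was searched as GGGCGG. A core of the longer CTCF motif was searched as GGNGGCAG, and TGANTCA is the AP-1 motif, bound by Fos with Jun. Of all 32544 distinct promoter windows of this length, 7.17% held an E-box, 13.6% a TATA box, 35.9% a GC box, 12.6% the CTCF part and 7.79% AP-1. The first set consists of starts that had a peak: the Igf2r promoter, the Airn start, the first Grb10 start and the start of Phlda2, a neighbour of Cdkn1c.
Igf2r promoter: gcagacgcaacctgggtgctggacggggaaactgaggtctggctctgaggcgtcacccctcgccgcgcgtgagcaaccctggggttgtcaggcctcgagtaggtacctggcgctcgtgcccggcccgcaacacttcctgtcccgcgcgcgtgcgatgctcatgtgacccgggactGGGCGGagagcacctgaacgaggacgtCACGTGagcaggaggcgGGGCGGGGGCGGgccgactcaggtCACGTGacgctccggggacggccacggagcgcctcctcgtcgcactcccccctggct
Airn promoter: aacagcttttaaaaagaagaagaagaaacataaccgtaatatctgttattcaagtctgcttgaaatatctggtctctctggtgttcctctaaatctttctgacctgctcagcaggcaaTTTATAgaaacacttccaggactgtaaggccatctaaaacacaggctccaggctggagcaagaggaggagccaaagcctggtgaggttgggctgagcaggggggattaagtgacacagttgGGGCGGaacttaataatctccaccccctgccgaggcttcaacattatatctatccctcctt
Grb10 promoter, start 1: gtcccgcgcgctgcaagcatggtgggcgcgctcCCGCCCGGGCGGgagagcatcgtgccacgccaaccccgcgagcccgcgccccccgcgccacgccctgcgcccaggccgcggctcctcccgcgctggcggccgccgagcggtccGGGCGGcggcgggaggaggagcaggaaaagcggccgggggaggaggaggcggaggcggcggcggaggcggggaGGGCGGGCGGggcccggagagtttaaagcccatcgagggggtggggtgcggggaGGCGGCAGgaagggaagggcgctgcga
Phlda2 promoter: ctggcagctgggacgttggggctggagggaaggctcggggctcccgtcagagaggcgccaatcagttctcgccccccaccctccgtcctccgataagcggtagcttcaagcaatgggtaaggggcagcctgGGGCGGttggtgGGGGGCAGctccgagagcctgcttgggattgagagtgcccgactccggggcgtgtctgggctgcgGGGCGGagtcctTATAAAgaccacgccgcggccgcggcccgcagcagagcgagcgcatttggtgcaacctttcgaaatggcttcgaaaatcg

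The Igf2r window was 70.7% G+C with 34 CpG dinucleotides, against a median of 53% and 7 over all promoter windows. It held 2 E-boxes, beginning at bases -48 and -7 counted from the start, which 0.599% of all promoter windows matched or exceeded. Its 3 GC boxes began at -75, -31 and -25, the last 2 directly adjoining. The Grb10 window was the richest of those printed, with 80% G+C, 45 CpG and 5 GC boxes, of which those at -31 and -27 overlap, and 1 CTCF part at base 24. The Phlda2 window had 26 CpG, a TATA box at -30, 2 GC boxes at -119 and -42 and a CTCF part at -107. The Airn window differed from these with 45.7% G+C and 3 CpG, a TATA box at -132 and a GC box at -11.

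The second set consists of starts of member genes without a peak.
Igf2 promoter, start 3: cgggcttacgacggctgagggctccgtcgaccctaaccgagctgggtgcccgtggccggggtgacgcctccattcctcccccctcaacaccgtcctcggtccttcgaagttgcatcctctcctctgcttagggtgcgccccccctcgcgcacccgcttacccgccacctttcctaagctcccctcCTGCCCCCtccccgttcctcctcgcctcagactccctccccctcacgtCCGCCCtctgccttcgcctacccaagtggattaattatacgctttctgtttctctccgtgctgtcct
Dlk1 promoter: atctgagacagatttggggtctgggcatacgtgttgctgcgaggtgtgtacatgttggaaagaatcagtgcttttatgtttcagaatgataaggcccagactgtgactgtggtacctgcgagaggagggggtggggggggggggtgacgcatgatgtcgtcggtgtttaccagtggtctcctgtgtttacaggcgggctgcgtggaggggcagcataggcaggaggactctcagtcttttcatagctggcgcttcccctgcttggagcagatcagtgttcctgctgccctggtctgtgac
Meg3 promoter, start 1: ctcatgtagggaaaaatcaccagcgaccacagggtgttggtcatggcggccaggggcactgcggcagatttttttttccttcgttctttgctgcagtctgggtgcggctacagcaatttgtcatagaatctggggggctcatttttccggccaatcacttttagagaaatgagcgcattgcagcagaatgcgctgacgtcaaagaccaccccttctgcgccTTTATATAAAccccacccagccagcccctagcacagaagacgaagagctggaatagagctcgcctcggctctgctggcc

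The third Igf2 start had 24 CpG, a GC box at -17 and a CTCF part at -65. Dlk1 had 9 CpG and none of the 5 motifs. Meg3 had 13 CpG and 2 overlapping TATA boxes, at -29 and -25, that read on opposite strands. None of the 14 start windows held AP-1, and Igf2r was the only gene of the 9 with an E-box. Of the starts placed at a peak by the whole-kb landmarks on mm9, Igf2r, the first Grb10 start and Phlda2 had 34, 45 and 26 CpG, and Airn had 3. The starts without a peak had 2, 14, 24 and 7 CpG at Igf2, 9 at Dlk1, 13 and 1 at Meg3, 2 at Slc22a18 and 0 at Rian. No sequence was available for H19, Cdkn1c and Ins2, whose promoters also had no peak, so the CpG counts of this group are incomplete. The second Grb10 start, with 9 CpG, was not placed on mm9. A match is a description of the letters and not a binding site.

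Open sites were unevenly placed in the 5 windows. The windows held 7 sites for H19 with Igf2, 9 for Dlk1 with Meg3, 14 for Igf2r, 7 for Grb10 and 8 for Cdkn1c. Per 100 kb this was 3.89, 4.09, 7.37, 3.33 and 8.00 sites, with 5 over all windows. In the 26366 tiles of 100 kb along the genome the mean was 1.98 and the median 1, and 49.0% of tiles had none. The positions of promoters, control regions and enhancers used to read the windows are whole-kb positions from general knowledge of mm9, since no annotation of that build was used here. By these positions the promoters of 2 of the 7 members, Igf2r and Grb10, overlapped a peak, in each of the 3 lists. Without an annotation of mm9 the share of all promoters with a peak was not computed. Whether 2 of 7 is few or ordinary was therefore not tested. Of the 4 control regions placed, those of H19 and of Airn in Igf2r overlapped a peak in each list, and the IG-DMR and the Grb10 control region in none. No control region was placed in the Cdkn1c window, so this count does not cover that locus.

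**Figure D1:**
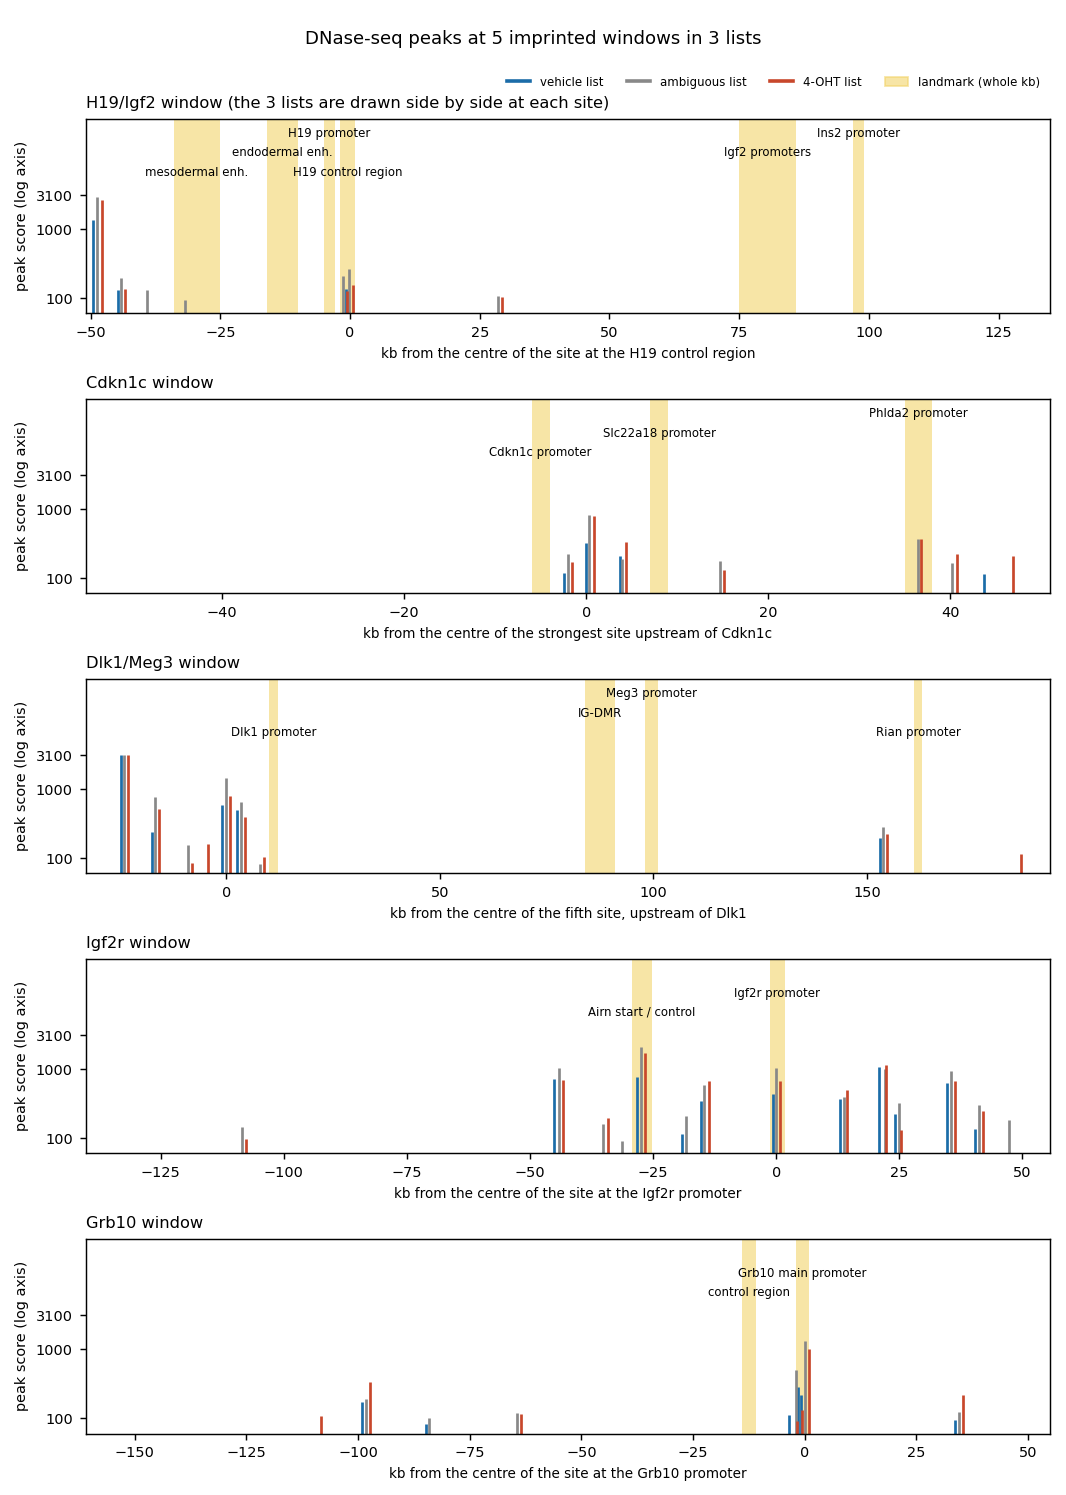
Peak scores along the 5 windows. Each vertical line is a peak of the vehicle (blue), ambiguous (grey) or 4-OHT (red) list, its height the deposited score on a log axis, its place in kb from a named site, with lines of the 3 lists set slightly apart; yellow bands are landmarks at whole-kb precision. Peaks stand at the H19 control region, the Airn start, and the Igf2r and Grb10 promoters, and long empty stretches cover Igf2 and the region from Dlk1 to Meg3.

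Presence of a peak differed between the lists at 21 of the 45 sites. All 3 lists had a peak at 24 sites (53.3%, Wilson 95% interval 39.1 to 67.1%), against 61.1% of all sites of the genome. Of the 38 member sites with a 4-OHT peak, 14 lacked a vehicle peak (36.8%, Wilson 23.4 to 52.7%), against 29.6% of all 46415 sites with a 4-OHT peak. Of the 27 with a vehicle peak, 3 lacked a 4-OHT peak (11.1%, Wilson 3.85 to 28.1%), against 3.87% of 33979. Of the 40 in the ambiguous list, 14 lacked a vehicle peak (35.0%, Wilson 22.1 to 50.5%), against 26.6%. All 4 genome-wide shares lie inside the members' intervals, the third barely. These intervals reflect counting error alone and treat neighbouring sites as independent.

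The lists differ in length, and the excess of 14 over 3 turned when the longer lists were cut to the length of the vehicle list. With each list held to its 35149 highest-scoring peaks, 5 member sites were in the 4-OHT list and not the vehicle list and 6 the other way round. The lowest scores kept were then 138 in the ambiguous and 148 in the 4-OHT list. The vehicle list lost no peak, so of this pair only 4-OHT peaks were removed. Among the 6, chr7:149723436-149724528, chr17:12986466-12987910 and chr11:11934551-11936982 had 4-OHT peaks in the full list, at 136, 132 and 134. The turn therefore reflects the cut, and no genome-wide share is given for these counts. With the ambiguous list in the place of the vehicle list, 4 sites were present in the 4-OHT list alone of the pair and 6 in the ambiguous list alone. Genome-wide this pair ran the other way. Of 46415 sites with a 4-OHT peak, 6416 were in that list only and 793 in it and the vehicle list only. Of 44275 with an ambiguous peak, 4451 were in that list only and 618 in it and the vehicle list only. Among the member sites, the direction of the difference therefore depended on which lists were compared and how long they were.

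At H19 and Igf2, the control region was open in every list, while no site lay at any Igf2 promoter or in the Igf2 gene. The control region carried a pair of sites, chr7:149766106-149767241 and chr7:149767400-149768305, separated by 158 bp. The second, with the higher scores, had a score of 136 in vehicle, 261 in ambiguous and 153 in 4-OHT, at list percentiles of 22.5, 41.6 and 27.4. The first had no peak in vehicle, 210 in ambiguous and 128 in 4-OHT. Both thus sat in the lower part of the lists that held them. Of the 3652 sites genome-wide whose 4-OHT score lay within 10% of 128, 69.9% had no peak in the vehicle list, and by the ambiguous score of 210 the share was 35.2% of 2644.

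Between the first control-region site and the next site on the H19 side lay 29.6 kb without a peak, which held the H19 promoter and the endodermal enhancers. The H19 promoter lay within 2 kb of the first control-region site. The mesodermal enhancers had 1 weak site, chr7:149735810-149736473, with a score of 93.0 in the ambiguous list and no peak in the other 2. Further out, chr7:149728326-149729323 was also present in the ambiguous list only, at 132. The next site, chr7:149723436-149724528, was in every list, at 130 (vehicle), 198 (ambiguous) and 136 (4-OHT). The strongest site of the window was chr7:149718115-149720653 at its outer edge, with 1368 in vehicle, 2933 in ambiguous and 2670 in 4-OHT. Its vehicle peak ended just outside the window. In the gene order of RefSeq, Nctc1 and then Mrpl23, a mitochondrial ribosomal protein gene, follow H19 on that side.

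On the Igf2 side, 27.9 kb without a peak separated the control region from chr7:149796193-149796925. This site had no peak in vehicle, 107 in ambiguous and 105 in 4-OHT. Beyond it no list had a peak for 239.6 kb, a stretch that took in the Igf2 promoters, the Igf2 gene and the promoter of Ins2, an insulin gene. Of the 52160 gaps between neighbouring sites of the genome, 2.77% were as long or longer, and the median gap was 11.8 kb. The share counts gaps and not bases, and a fixed position such as a promoter falls more often in a long gap.

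At Dlk1 and Meg3, the open sites clustered upstream of Dlk1, and neither promoter nor the IG-DMR had a peak. The strongest site of all 5 windows, chr12:110654561-110657431, stood at the ceiling of 3100 in every list. Following it toward Dlk1, chr12:110662491-110664109 scored 240 (vehicle), 768 (ambiguous) and 523 (4-OHT). The site chr12:110679009-110680842 scored 586, 1432 and 785 in the same order, and chr12:110682759-110684257 scored 495, 645 and 401. All 4 were in every list. At those below the ceiling, the list percentile was highest in the ambiguous list, at 64.4, 73.9 and 61.6. Ranked only among sites present in every list, the last instead stood highest in vehicle, at 55.3, against 46.2 in ambiguous and 34.8 in 4-OHT. The middle ones stayed highest in the ambiguous list, at 50.1 and 63.3. In RefSeq's gene order no protein-coding gene lies between Dlk1 and Begain on this side.

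The weaker sites of this cluster were missing from the vehicle list. The one nearest Dlk1, chr12:110687449-110688209, lay within 2 kb of the promoter and scored 82.2 in the ambiguous and 105 in the 4-OHT list, the first of these close to the lowest score of the files. The site chr12:110670666-110671471 scored 156 and 86.2, and chr12:110674298-110675170 scored 161 in the 4-OHT list alone. Sites of like 4-OHT score lacked a vehicle peak in 80.5%, 87.9% and 56.6% of cases genome-wide, in the order of these 3 sites.

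From the site nearest Dlk1, no list had a peak for 144.8 kb, across the Dlk1 promoter, the IG-DMR and the Meg3 promoter. By count and not by bases, gaps of this length or more made up 4.76% of the genome's gaps. The gap ended at chr12:110833029-110834838, between Meg3 and Rian, another maternally expressed non-coding RNA, where all lists had a peak (196 in vehicle, 281 in ambiguous, 228 in 4-OHT). The Rian promoter fell in a further gap of 30.1 kb. The last site, chr12:110864988-110865701, scored 117 in the 4-OHT list and had no peak in the others.

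The Igf2r window had the most sites, and both ends of its sense and antisense pair were open in every list. The Igf2r promoter, chr17:12961497-12963160, scored 439 in vehicle, 1039 in ambiguous and 677 in 4-OHT. The Airn start and control region, chr17:12933722-12936057, scored 766, 2109 and 1709 in the same order, with list percentiles of 67.8, 79.3 and 80.8. The antisense start, whose site lay 27.4 kb from the promoter site between centres, thus had the higher score of the pair in each list. The Igf2r promoter stood at list percentiles of 56.4, 69.2 and 66.0. The Airn site was the strongest of the window in the ambiguous and 4-OHT lists, and in the vehicle list only chr17:12982676-12986029 exceeded it.

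Most of the remaining sites of the Igf2r window lay within the gene or upstream of its promoter. The exception, chr17:12853348-12854181 beyond the far end of the gene, had no vehicle peak, 143 in ambiguous and 96.0 in 4-OHT, and was followed by 62.5 kb without a peak. Within the gene, chr17:12916704-12919486 was in every list at 733 (vehicle), 1045 (ambiguous) and 687 (4-OHT). Of the weaker sites there, chr17:12926579-12927787 had no vehicle peak, 161 in ambiguous and 198 in 4-OHT. By contrast chr17:12943263-12944526 had 116 in vehicle, 213 in ambiguous and no 4-OHT peak. Genome-wide, 41.1% of the 2881 sites with a 4-OHT score like that of the first lacked a vehicle peak. For the second, 10.1% of the 2674 vehicle sites of like score lacked a 4-OHT peak.

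Upstream of the promoter, 6 sites followed, of which 5 were in every list. The largest, chr17:12982676-12986029, scored 1093 in vehicle, 1024 in ambiguous and 1145 in 4-OHT, close together on the score scale. Next to it, 436 bp away, chr17:12986466-12987910 scored 223, 327 and 132. The outermost, chr17:13008888-13010223, was in the ambiguous list only, at 182. In all, 9 of the 14 sites of this window were in every list (64.3%, Wilson 38.8 to 83.7%), near the 61.1% of all sites of the genome. The other sites of the window scored between 90.9 and 947.

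At Grb10 the main promoter had peaks in every list and the control region in the gene had none. The promoter carried 2 adjoining sites separated by 68 bp. The stronger, chr11:11937051-11938985, scored 285 in the vehicle list, where it was called as 2 peaks (285 and 219), 1337 in ambiguous and 1014 in 4-OHT. Its list percentile was 46.2 in vehicle, 72.9 in ambiguous and 72.7 in 4-OHT. The other, chr11:11934551-11936982, scored 112 in vehicle, 496 in ambiguous and 134 in 4-OHT, the last as 2 peaks of 92.5 and 134. Only the 4-OHT peak of 92.5 overlapped the vehicle peak, and the ambiguous peak joined the one of 134 to the site. The list percentile of this other site was 14.8 in vehicle, 56.6 in ambiguous and 22.5 in 4-OHT. Both sites thus had their lowest list percentile in the vehicle list and their highest in the ambiguous list.

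The control region, which holds the promoter used in neurons, lay in a gap of 60.7 kb, and 13.2% of the genome's gaps were as long. Within the gene, chr11:11839336-11840342 was in every list at 171 (vehicle), 192 (ambiguous) and 331 (4-OHT). The site chr11:11853312-11854705 scored 81.2 and 99.8 in the vehicle and ambiguous lists and had no 4-OHT peak, and chr11:11873133-11873893 scored 118 and 117 in the ambiguous and 4-OHT lists and had no vehicle peak. These last scores stood at list percentiles of at most 17.1. The site chr11:11828511-11829423, at the far end of the gene, was in the 4-OHT list only, at 107. Upstream of the promoter 1 site, chr11:11971879-11973240, was in every list, at 95.4, 125 and 220, and 121.9 kb without a peak followed it.

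At Cdkn1c the promoter itself had no peak, and 3 sites followed directly upstream of it. The nearest, chr7:150649439-150650569, lay within 2 kb of the promoter and scored 118 in vehicle, 227 in ambiguous and 170 in 4-OHT. The strongest, chr7:150651825-150652985, scored 318, 816 and 804 in the same order, and chr7:150655463-150656651 scored 211, 192 and 332. All 3 were in every list. The promoter lay at the end of a gap of 63.0 kb that covered the gene and its downstream side, and 12.6% of the genome's gaps were as long. The promoter of the next gene, the transporter gene Slc22a18, also had no peak. A site beyond it, chr7:150666193-150667208, scored 177 in ambiguous and 132 in 4-OHT and was missing from the vehicle list.

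The promoter of Phlda2, which restrains growth of the placenta, carried the highest-scoring member site without a vehicle peak. The site chr7:150687693-150689259 scored 368 in ambiguous and 372 in 4-OHT, at list percentiles of 50.1 and 53.6, and had no peak in the vehicle list. Of the 2208 sites genome-wide with a 4-OHT score within 10% of this one, 6.43% (Wilson 5.48 to 7.53%) lacked a vehicle peak, and of the 2047 of like ambiguous score, 7.82%. It was among the 5 sites still in the 4-OHT list and not the vehicle list at equal list length. That followed by construction, since the vehicle list was kept whole and the 4-OHT list was cut at 148.

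Further along, chr7:150691430-150693051 scored 167 in ambiguous and 221 in 4-OHT with no vehicle peak, and chr7:150697855-150699064 scored 208 in the 4-OHT list alone. Sites of like 4-OHT score lacked a vehicle peak in 33.3% and 38.5% of cases. Between them, chr7:150695531-150696572 scored 115 in the vehicle list and had no peak in the other 2, the only member site found in the vehicle list alone. Genome-wide, 697 of the 52181 sites were in the vehicle list alone. Of the 2676 sites of like vehicle score, 10.3% lacked a 4-OHT peak. In RefSeq's gene order Nap1l4, a histone chaperone gene, follows Phlda2 on this side.

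**Figure D2:**
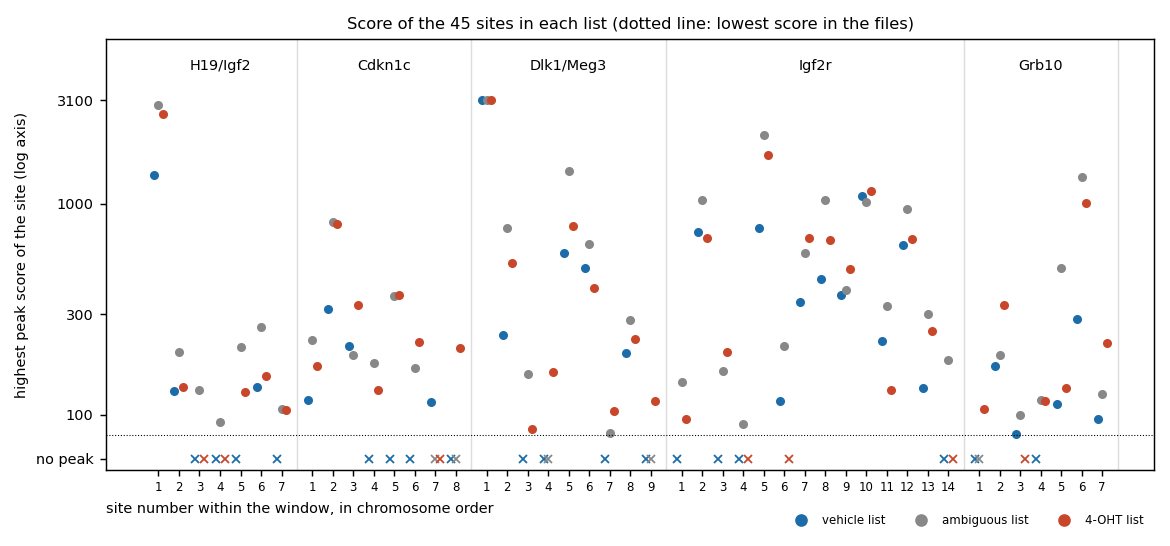
Highest peak score of each of the 45 sites in the vehicle (blue), ambiguous (grey) and 4-OHT (red) lists, on a log axis, by site number within its window; a cross marks no peak and the dotted line the lowest score of the files. Of the 21 sites missing from a list, 18 are missing from the vehicle list, 5 from the ambiguous list and 7 from the 4-OHT list, and most lie near the bottom of the range. Over all 52181 sites of the genome, 18202, 7906 and 5766 are missing from these lists in the same order.

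The median member site stood lower in each list than the median site of the genome. Their median list percentile was 41.6 in vehicle, 39.6 in ambiguous and 39.9 in 4-OHT, against 50.8, 50.3 and 50.4 for all sites. Scores of at least 1000 were reached by 3 of 27 member sites in the vehicle list (11.1%), 8 of 40 in the ambiguous list (20.0%) and 5 of 38 in the 4-OHT list (13.2%). The corresponding shares of all sites were 27.9%, 31.8% and 28.0%. Median scores by window ranged in the vehicle list from 112 at Grb10 to 495 at Dlk1 and Meg3, and in the 4-OHT list from 136 at H19 and Igf2 to 677 at Igf2r.

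The stretches without a peak are set against all gaps of the genome in the plot of gap lengths. The gap over Igf2 and Ins2 and that from Dlk1 to Meg3 both exceeded the 90th percentile of 78.3 kb. The gaps at the Cdkn1c promoter, the Grb10 control region and the H19 promoter did not. All of these gaps were picked because a landmark fell in them, which favours long gaps. Shares by count therefore make them look rarer than they are. The part of the genome that lies in gaps as long was not computed, but 49.0% of the 100 kb tiles had no site. A gap says only that no peak passed the caller's threshold in these lists, and at unknown depth an open promoter below that threshold cannot be told from a closed one.

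**Figure D3:**
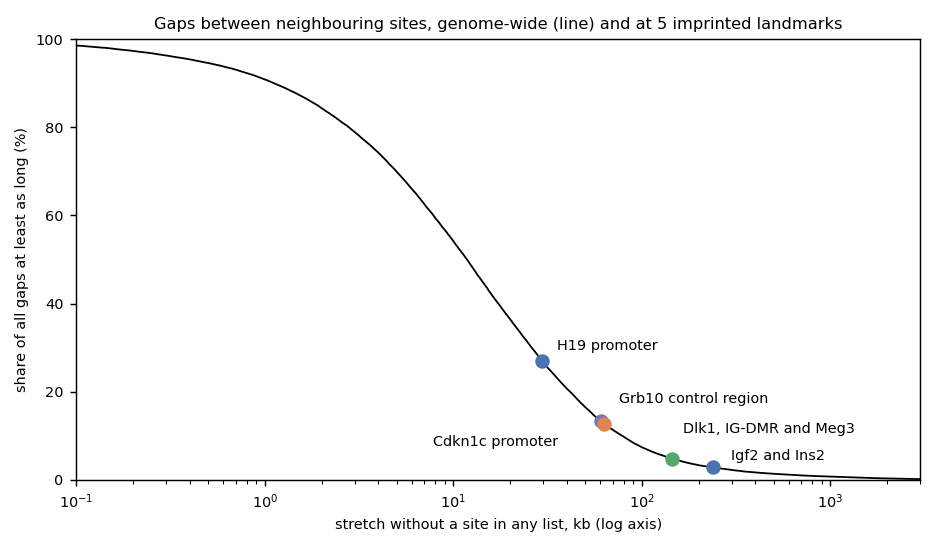
Share of all 52160 gaps between neighbouring sites (vertical axis, percent) that are at least as long as a given length (horizontal axis, kb, log scale). Points mark the gaps at 5 imprinted landmarks, from 29.6 kb at the H19 promoter (26.9% of gaps as long) to 239.6 kb at Igf2 and Ins2 (2.77%). Shares are by count, and a fixed landmark falls more often in a long gap.

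For the 24 member sites in every list, order could be compared over the same sites. All 31871 sites of the genome with a peak in each list were ranked by score within each list, as a percentile. From the vehicle to the 4-OHT list, the median member site moved by -3.95 percentile points and 9 of 24 moved up, against a median of -0.54 and 15242 of 31871 for all shared sites. The middle 90% of all shared sites moved by -16.8 to 17.5 points, and 3 of the 24 member sites lay outside, as did 3188 of the 31871. These 3 were the stronger Grb10 promoter site (17.7, from 41.8 to 59.5), chr12:110682759-110684257 upstream of Dlk1 (-20.5, from 55.3 to 34.8) and chr17:12986466-12987910 upstream of Igf2r (-30.0, from 34.7 to 4.7).

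The ambiguous list stood nearer to a different list from site to site. At the stronger Grb10 promoter site it ranked at 61.9, 20.1 points above vehicle, and 4-OHT minus ambiguous was -2.4 points. At the other Grb10 promoter site it ranked at 39.4, 28.6 points above vehicle, and 4-OHT minus ambiguous was -34.5. At the Igf2r upstream site it ranked at 27.4, and 4-OHT minus ambiguous was -22.7 points. The Airn site moved little, at 64.8 (vehicle), 70.9 (ambiguous) and 71.4 (4-OHT), and so did the Igf2r promoter, at 52.6, 56.7 and 49.8. The H19 control-region site in every list ranked at 17.7, 20.6 and 7.2. Of the 24 member sites, 3 lay outside the middle 90% for ambiguous against vehicle and 4 for 4-OHT against ambiguous. For each pair 3188 of all 31871 shared sites lay outside, a share fixed by the definition.

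**Figure D4:**
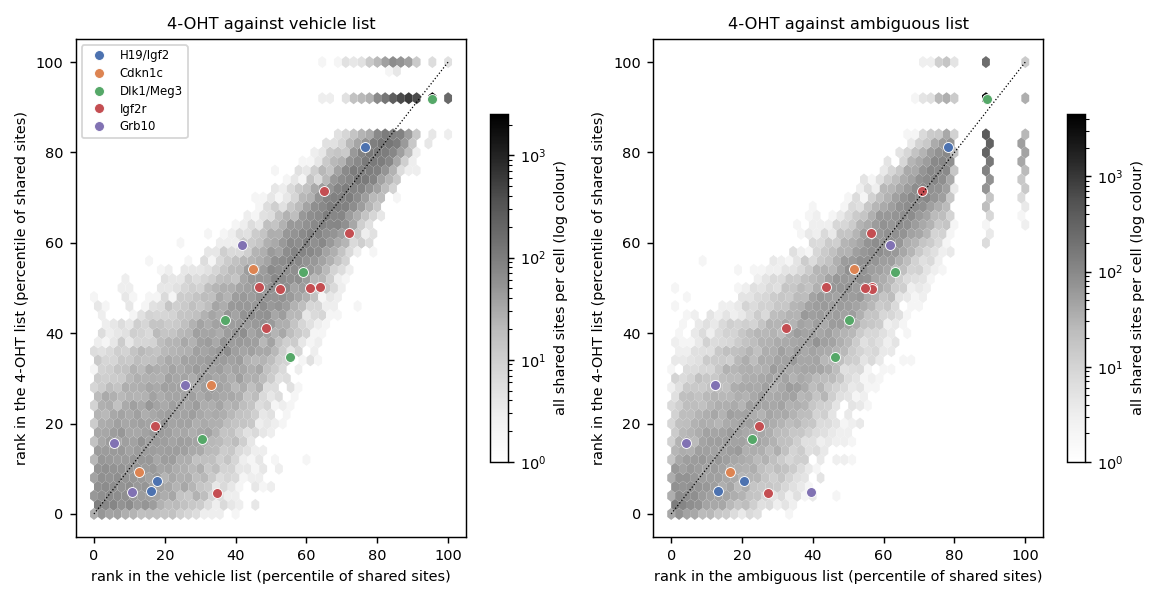
Percentile rank of shared sites in the 4-OHT list (vertical axis) against that in the vehicle list (left) or the ambiguous list (right). Grey cells count all 31871 shared sites, coloured points are the 24 member sites by window, and the dotted line marks equal rank; member sites lie within the cloud, with a Grb10 promoter site well below the line on the right.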

How the data were processed

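DNase-seq peak lists of 3T9 MycER fibroblasts were analysed (vehicle and 4-OHT, 2 libraries each by the labels; the input was not analysed). Per the submitters' processing notes the tools were BWA 0.6.2, SAMtools and MACS 1.4.1, on mm9, with settings not given in the sources used here. Deposited peak scores are the authors' own values, read as minus 10 log10 of p from the caller's name. Whether peaks were called per library, and the depth, are not given in the sources used here.

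Peaks were merged into sites at an overlap of at least 1 bp, checked against bedtools 2.31.1 and tested on 3000 simulated sites, of which 100% were recovered. A site's score is its highest peak score in a list. Like scores are those within 10%. Sites were named where they overlapped or lay within 2 kb of a landmark, or were among the 3 highest by mean percentile or the 3 highest-scoring missing from a list; those named beyond this rule were chosen after their values were seen. Members, landmarks and lists were chosen with earlier results of these data known. Landmarks are whole-kb positions from general knowledge. RefSeq tables (GRCm38.p6) served for sequences and gene order only. Shares carry Wilson 95% intervals. Alternatives were a score of at least 100, equal list length, joining within 500 bp, 50% overlap, windows widened by 20 kb and leaving out each list. Computation used Python 3.11.15, numpy 2.4.6, pandas 2.3.3, scipy 1.17.1 and matplotlib 3.10.9.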

Additional observations from a re-analysis of the deposited data

How the results depend on the processing

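Of 72 recomputed counts over 9 results and 8 alternatives, 66 stayed within 1.5 times the reported value and 6 did not. At equal list length, the sites in the 4-OHT and not the vehicle list fell to 5, those in the vehicle and not the 4-OHT list rose to 6, and the H19 with Igf2 window kept 4 of its 7 sites; shorter lists drop weak peaks by construction. Leaving out each list gave 4 to 15 sites for the first count and 1 to 6 for the second, with 4 and 6 when vehicle replicate 1 was left out and 1 when 4-OHT replicate 2 was; the ambiguous list then stood in their place. Genome-wide, the pair that gave 4 and 6 ran the other way, as described above. The total of 45 sites ranged from 37 to 49. No paired analysis was possible because the list deposited as 4-OHT replicate 1 and as vehicle replicate 2 is the same. Depth is unknown, so a missing peak does not show closed chromatin.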
